A study of Rattus norvegicus with 12 samples.

Results

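The genes examined here were the WNT ligands, the frizzled receptors, the secreted inhibitors of WNT, and a few partners of the same pathway in wound tissue of diabetic rats. They were chosen by symbol, with earlier results of these data known. The rule took every gene whose name is Wnt, Fzd, Sfrp, or Dkk followed by a digit. It also named Wif1, Frzb, Axin2, Lgr5, Rspo1, Rspo2, and Rspo3. The rule found 43 genes of the 25620 in the table of read counts, and all 43 were also among the 25524 genes with an FPKM value (fragments scaled by gene length and by library total). They comprised 18 WNT ligands, 10 frizzled receptors, 10 secreted inhibitors, 3 R-spondins, Lgr5, and Axin2. Every library came from young adult male Sprague-Dawley rats that had been made diabetic with streptozotocin, a toxin of the pancreatic beta cell, and that carried a full-thickness punch wound on the back. The 4 groups were saline (control), d-SMG (dried mucus gel of the land snail Achatina fulica), s-GAG (the sulfated glycosaminoglycan prepared from that mucus, labelled GAG), and Alg (a commercial alginate dressing), each on day 3, 7, and 14. There was 1 library for each group and day, 12 libraries in all, so a dressing and the control of 1 day were compared without replicates. The number of animals behind a library and the part of the wound that was sampled are not given in the sources used here, and streptozotocin diabetes is a chemical model of the disease.

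WNT proteins are lipid-bearing signals that bind a frizzled receptor together with the co-receptor Lrp5 or Lrp6, and in the canonical branch this stabilizes beta-catenin, which then acts on genes through Lef1 and the Tcf factors. The Sfrp proteins, Frzb, and Wif1 bind WNT ligands outside the cell, whereas Dkk1, Dkk2, and Dkk4 block the co-receptor. R-spondins act through Lgr receptors to keep frizzleds at the cell surface, and Axin2 is both an inhibitor inside the cell and a widely used readout of the pathway. In skin, this pathway is known for its part in the formation and cycling of hair follicles and in the behaviour of dermal fibroblasts.

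The libraries held between 13748887 and 38302461 reads on genes, and between 4215 and 19828 of those reads fell on the 43 genes. Levels below are CPM, reads scaled to a common library total, after TMM scaling, a correction for differences in library composition, unless FPKM is named. The skin label was checked against marker genes: the summed level of 7 basal keratinocyte markers lay between 4212 and 33750 CPM in 11 libraries but was 81.3 CPM in d-SMG on day 3, where the keratin Krt14 stood at 21.2 CPM against 2413 or more elsewhere. Skeletal muscle markers were present in every library, from 6020 CPM in d-SMG on day 7 to 251000 CPM in d-SMG on day 3. The d-SMG library of day 3 therefore stood apart. The models over all libraries were also fitted without it, while the ratios of d-SMG to the control on day 3, and the counts over all 3 days of d-SMG, cannot be had without it. In bulk tissue, fewer cells of a type and less RNA per cell cannot be told apart.

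**Figure D1:**
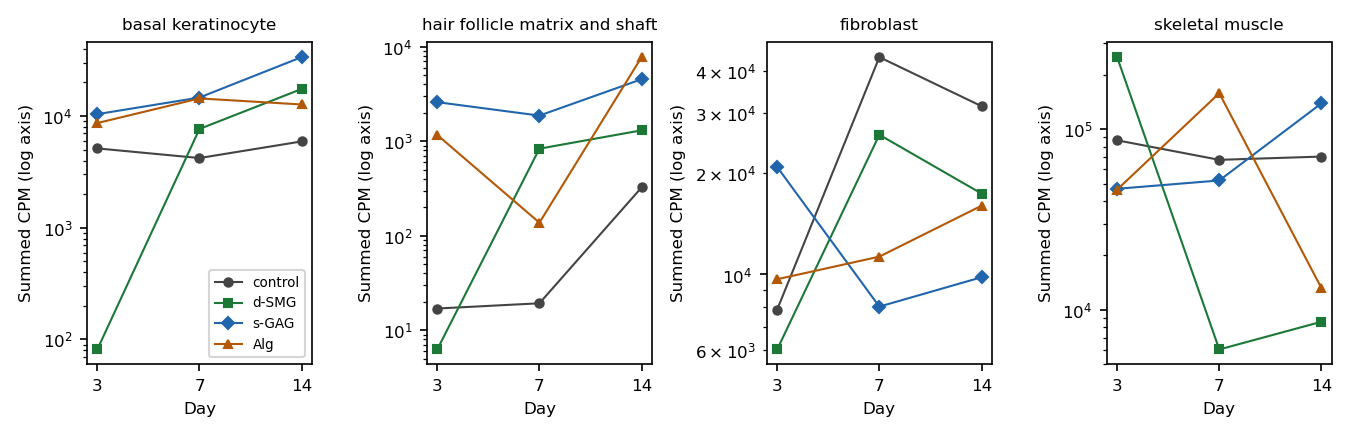
Summed CPM of 4 marker lists (log axis) against day (evenly spaced), with 1 library a point and lines joining libraries of the same group. The d-SMG library of day 3 sits lowest for keratinocyte and follicle markers and highest for skeletal muscle.

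Of the 43 genes, 35 had enough reads to be tested in the models over all libraries, namely 13 of 18 ligands, 9 of 10 frizzleds, 8 of 10 inhibitors, all 3 R-spondins, Lgr5, and Axin2. The other 8 were sparse. Over the 12 libraries together, Dkk1 and Wnt1 had 1 read each, Wnt8a had 4 reads, Dkk4 had 12 reads, and Wnt9b had 24 reads. Wnt7a had 43 reads, Fzd9 had 45 reads, and Wnt2b had 58 reads in total. In all, 29 of the 43 genes had at least 1 read in every library.

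Among the ligands, Wnt4 led in most libraries, with a median of 5.02 FPKM (range 1.73 to 6.69), followed by Wnt16 (median 3.13 FPKM, range 0.07 to 9.71) and Wnt9a (median 1.84 FPKM, range 1.01 to 2.64). Wnt4 is a ligand of the epithelium and dermis, and Wnt16 is expressed in skin and bone. Wnt4 was the leading ligand in 9 of the 12 libraries, and Wnt16 led in the control, d-SMG, and Alg libraries of day 14. The FPKM summed over the 18 ligands was 3.49 in d-SMG on day 3 and between 11.1 and 23.2 in the other libraries. Wnt3a, Wnt10b, Wnt10a, and Wnt11, which include ligands of the hair follicle and the developing skin, had medians of 0.23, 0.35, 0.47, and 0.58 FPKM, respectively. The lowest of the tested ligands by median FPKM were Wnt2 and Wnt7b, at 0.055 and 0.08 FPKM. Across the libraries Wnt4 stood at 18.0, 31.3, and 18.3 CPM in the control on day 3, 7, and 14, 10.6, 19.8, and 24.9 CPM in d-SMG, 22.4, 21.5, and 28.0 CPM in s-GAG, and 13.4, 27.3, and 24.0 CPM in Alg. Its highest library was the control of day 7 and its lowest was d-SMG on day 3. Wnt9a, a ligand of connective tissue and joints, was at 5.96, 8.26, and 6.45 CPM in the control on day 3, 7, and 14, 4.99, 7.78, and 6.04 CPM in d-SMG, 6.59, 7.602, and 5.86 CPM in s-GAG, and 6.27, 7.18, and 3.36 CPM in Alg. It kept within a narrow range, with its highest level in the control of day 7 and its lowest in Alg on day 14.

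Of the frizzled receptors, Fzd6 (median 5.71 FPKM), Fzd1 (5.63 FPKM), and Fzd4 (4.61 FPKM) were the most abundant. Fzd6 takes part in the planar orientation of hair follicles, and Fzd4 is also a receptor of the ligand norrin. Fzd7 followed at 3.73 FPKM and Fzd2 at 1.89 FPKM, and Fzd10, Fzd3, Fzd5, Fzd8, and Fzd9 had medians of 1.20 FPKM or less. Fzd6, Fzd1, or Fzd4 led in every library, with 22.9% to 31.2% of the sum in 11 of them, but in d-SMG on day 3 Fzd4 alone made up 65.9% of the summed frizzled FPKM (11.1 of 16.8 FPKM). There, Fzd4 reached 107 CPM, while the other 11 libraries lay between 9.61 and 36.2 CPM. This was the library with the most skeletal muscle and the least keratinocyte signal, and the part of tissue makeup in the Fzd4 level was not tested. Fzd4 was at 27.1, 35.8, and 24.3 CPM in the control on day 3, 7, and 14, 107, 30.1, and 15.7 CPM in d-SMG, 36.2, 28.0, and 9.61 CPM in s-GAG, and 34.7, 33.9, and 34.2 CPM in Alg. Fzd6 was at 15.8, 19.8, and 24.6 CPM in the control on day 3, 7, and 14, 8.28, 29.0, and 40.9 CPM in d-SMG, 37.2, 59.7, and 23.2 CPM in s-GAG, and 32.3, 32.2, and 38.2 CPM in Alg. It was highest in s-GAG on day 7 and lowest in d-SMG on day 3. Fzd1 was at 10.6, 30.7, and 18.7 CPM in the control on day 3, 7, and 14, 10.7, 36.0, and 30.3 CPM in d-SMG, 34.1, 39.8, and 27.2 CPM in s-GAG, and 22.2, 20.3, and 35.0 CPM in Alg, highest in s-GAG on day 7 and lowest in the control of day 3.

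The inhibitors outweighed the ligands on the per-length scale. Their summed level was between 24.5 and 208.5 FPKM over the libraries, and it was higher than that of the ligands in every library. Sfrp1 had the highest median (12.8 FPKM), followed by Sfrp2 (10.8 FPKM), Sfrp4 (10.55 FPKM), Dkk3 (9.63 FPKM), and Dkk2 (5.42 FPKM). Dkk3 is a divergent member of the Dkk family that is not known to block the co-receptor. Sfrp5, Wif1, Frzb, Dkk4, and Dkk1 had medians of 0.58 FPKM or less. Which inhibitor led depended on the library, with Sfrp2 first in 4 libraries (control on day 3 and 7, and d-SMG and Alg on day 7), Sfrp1 first in 4 libraries, Sfrp4 first in 3 libraries, and Dkk3 first in the control of day 14.

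**Figure D2:**
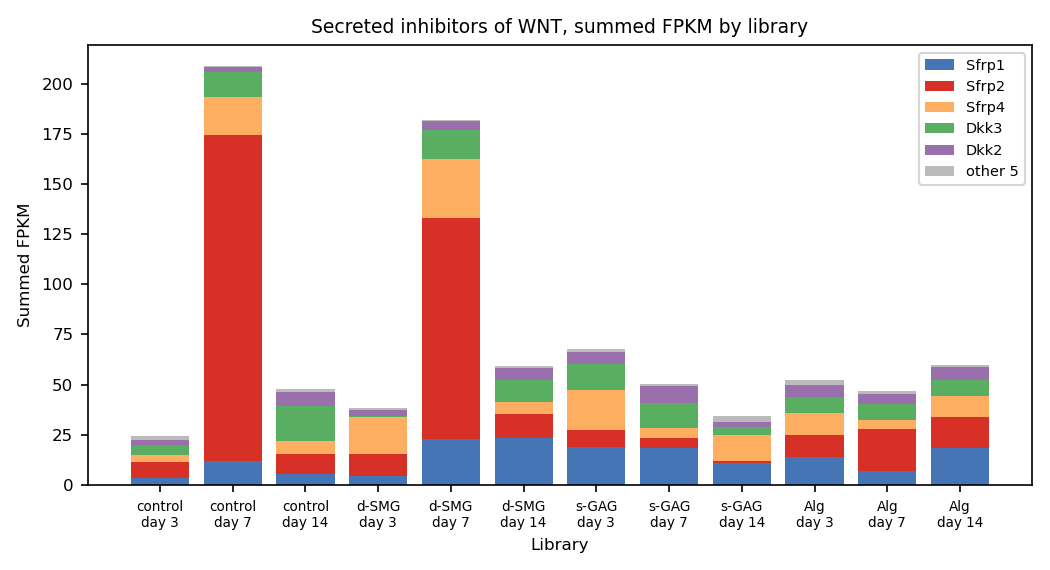
Summed FPKM of the 10 secreted inhibitors in each library, with the 5 most abundant drawn separately and the other 5 pooled. The control and d-SMG libraries of day 7 reach 208.5 and 182.0 FPKM, most of it Sfrp2, while no other library exceeds 67.8 FPKM.

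Sfrp2, a secreted inhibitor made by fibroblasts, showed the widest swing of the abundant genes. In the control it was at 17.2, 356, and 21.5 CPM on day 3, 7, and 14, and in d-SMG it was at 30.6, 191, and 23.1 CPM. In s-GAG it was at 17.0, 10.8, and 3.61 CPM and in Alg at 22.2, 48.1, and 30.7 CPM on the same days. The control and d-SMG libraries of day 7 stood far above the other 10, which lay between 3.61 and 48.1 CPM. Sfrp2 accounted for 78.0% of the inhibitor FPKM in the control and 60.3% in d-SMG on day 7. The summed level of 8 fibroblast and matrix markers on day 7 was 43850 CPM in the control and 25860 CPM in d-SMG, against 8037 CPM in s-GAG and 11290 CPM in Alg, and the part of fibroblast content in the Sfrp2 difference was not tested. On day 14 the control held 31410 CPM of the same markers while Sfrp2 was at 21.5 CPM.

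Sfrp4, another Sfrp protein of the dermis, ranked the libraries in another order than Sfrp2. It was at 11.8, 69.5, and 23.3 CPM in the control on day 3, 7, and 14, at 91.2, 88.7, and 18.7 CPM in d-SMG, at 66.7, 18.3, and 62.2 CPM in s-GAG, and at 38.0, 19.3, and 33.6 CPM in Alg. Thus it was high in d-SMG on day 3 and 7, in the control on day 7, and in s-GAG on day 3 and 14. Sfrp1, an inhibitor that the dermis and the follicle both express, was at 15.1, 51.2, and 22.3 CPM in the control, 26.0, 79.0, and 88.3 CPM in d-SMG, 72.2, 76.6, and 60.2 CPM in s-GAG, and 54.6, 31.9, and 71.3 CPM in Alg. The control had the lowest Sfrp1 level of the 4 groups on day 3 and 14, and Alg had the lowest on day 7. Dkk3 was at 32.8, 83.9, and 113 CPM in the control at 5.39, 74.2, and 63.3 CPM in d-SMG, at 77.6, 80.6, and 36.5 CPM in s-GAG, and at 49.2, 53.2, and 49.1 CPM in Alg, so the d-SMG library of day 3 was again the lowest of all 12.

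**Figure D3:**
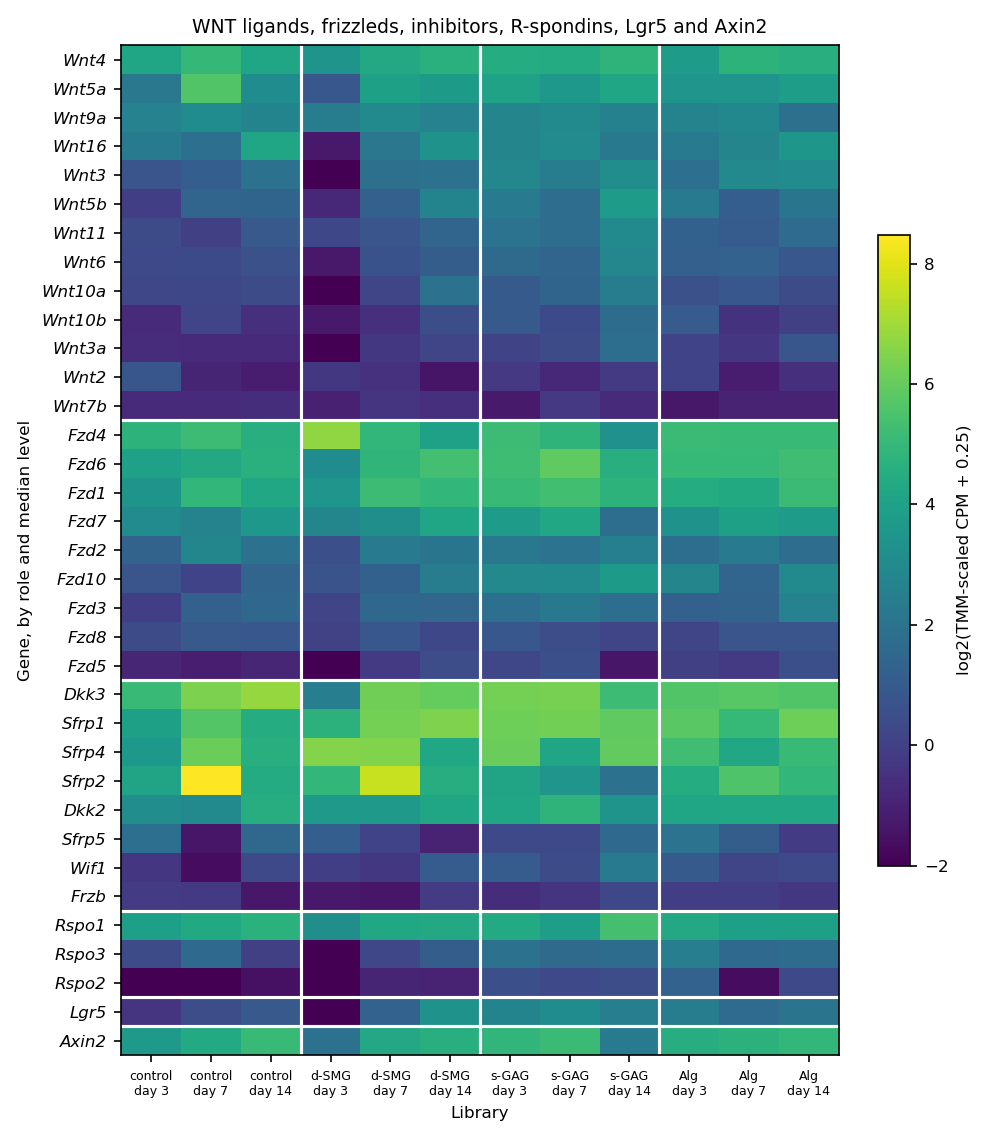
Levels of the 35 tested genes in the 12 libraries, as log2(TMM-scaled CPM + 0.25), grouped by role. The column of d-SMG on day 3 is the darkest for 9 of the 13 ligands and for Lgr5, and that of s-GAG on day 14 is the brightest for 7 of the 13 ligands.

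The R-spondins were dominated by Rspo1, with a median of 8.76 FPKM against 1.65 FPKM for Rspo3 and 0.025 FPKM for Rspo2, and Rspo1 made up 69.2% to 100% of their summed FPKM. Rspo1 was at 14.7, 20.6, and 25.7 CPM in the control on day 3, 7, and 14, at 8.85, 18.6, and 20.0 CPM in d-SMG, at 21.1, 14.4, and 41.9 CPM in s-GAG, and at 20.0, 14.6, and 15.2 CPM in Alg. The s-GAG library of day 14 was the highest and d-SMG on day 3 the lowest. Rspo2 is known from the follicle mesenchyme, and its reads were few. It had 0, 0, and 2 reads in the control on the 3 days, 0, 6, and 4 reads in d-SMG, 21, 39, and 17 reads in s-GAG, and 45, 1, and 16 reads in Alg. Its s-GAG libraries all exceeded the control libraries in CPM, whereas Alg on day 7, with 1 read, lay within the range of the control.

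Time after wounding was examined first, with the 4 treatments as a block in the edgeR quasi-likelihood test. None of the 35 tested genes passed an adjusted p of 0.05 between any 2 days, and neither did any of the 16110 genes tested, so the background was 0% in each of the 3 comparisons. At an unadjusted p under 0.05 there were 3 of the 35 genes on day 7 against day 3, 4 on day 14 against day 3, and 4 on day 14 against day 7, beside 292, 798, and 502 of all genes. DESeq2, run as an alternative, also called none of them, although it called 18, 46, and 26 genes of the whole table. The median log2 fold change of the 35 genes was 0.41, 0.62, and 0.18 in these comparisons, beside medians of 0.00, 0.01, and 0.01 over all genes. These medians rest on single libraries. Without the d-SMG library of day 3 they were 0.10, 0.29, and 0.07. On day 7 against day 3 the median was 0.62 without s-GAG on day 3 and 0.72 without Alg on day 3. On day 14 against day 7 it was -0.20 without d-SMG on day 14, 0.02 without s-GAG on day 3, 0.05 without Alg on day 7, 0.09 without Alg on day 14, and 0.27 without s-GAG on day 14.

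The genes with the smallest p-values in time are given as values. On day 7 against day 3 they were Sfrp2 (log2 fold change 1.97 ± 0.81 SE), Wnt4 (0.66 ± 0.29), and Fzd2 (0.94 ± 0.41), each higher on day 7 in 3 of the 4 treatments with an edgeR adjusted p of 0.999. Without the control library of day 7, the Sfrp2 value was 1.17. Fzd2, a receptor of the mesenchyme, was at 2.27, 6.83, and 3.47 CPM in the control on day 3, 7, and 14, 1.21, 4.83, and 3.97 CPM in d-SMG, 4.36, 3.71, and 5.45 CPM in s-GAG, and 3.23, 4.74, and 3.11 CPM in Alg. The days overlapped for Fzd2. It averaged 5.03 ± 1.30 CPM (SD, n = 4) on day 7 and 2.77 ± 1.35 CPM on day 3, and Wnt4 averaged 24.97 ± 5.30 CPM and 16.1 ± 5.17 CPM. On day 14 against day 3 they were Fzd3 (1.20 ± 0.42), Wnt11 (0.84 ± 0.32), and Fzd4 (-1.24 ± 0.48), with an adjusted p of 0.882 from edgeR. Fzd3, a receptor of the planar polarity branch, was at 0.714, 2.05, and 2.59 CPM in the control on day 3, 7, and 14, 0.885, 2.58, and 2.52 CPM in d-SMG, 3.33, 4.46, and 3.20 CPM in s-GAG, and 2.06, 2.30, and 5.96 CPM in Alg, and the days overlapped. Fzd3 averaged 3.57 ± 1.63 CPM on day 14 and 1.75 ± 1.21 CPM on day 3. Fzd4 was lower on day 14 in 4 of 4 treatments, at 21.0 ± 10.7 CPM against 51.3 ± 37.4 CPM, and its log2 fold change was -0.70 without the d-SMG library of day 3.

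On day 14 against day 7 the genes with the smallest p-values were Fzd10 (1.27 ± 0.37), Wif1 (1.80 ± 0.54), and Sfrp2 (-2.57 ± 0.79), with an adjusted p of 0.904 from edgeR. Each had the same direction in 4 of 4 treatments. Wif1, an inhibitor that binds WNT ligands directly, averaged 2.16 ± 1.83 CPM on day 14 and 0.640 ± 0.434 CPM on day 7. Without the control library of day 7, the Sfrp2 value was -1.66. Wnt16, which was not among those with the smallest p-values in any comparison, was at 4.83, 3.28, and 17.5 CPM in the control on day 3, 7, and 14, 0.161, 4.24, and 9.88 CPM in d-SMG, 6.54, 8.01, and 4.50 CPM in s-GAG, and 4.75, 6.57, and 11.5 CPM in Alg. Its control library of day 14 was the highest of the 12.

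Each dressing was then compared with the control over the 3 days, with day as a block. Again no gene passed an adjusted p of 0.05 in the edgeR test, whether among the 35 or the 16110, which makes the background 0% for d-SMG, s-GAG, and Alg alike. At an unadjusted p under 0.05 there were 0 of the 35 genes for d-SMG, 11 for s-GAG, and 4 for Alg, beside 218, 1492, and 502 of all genes. By DESeq2, 0 of them were called for d-SMG, 4 for s-GAG (Fzd10, Wnt11, Wif1, and Rspo2, all higher), and 1 for Alg (Fzd10, higher), among 9, 281, and 93 genes of the table. DESeq2 tested 43, 40, and 43 of the members and 25349, 21417, and 25349 genes in these comparisons. The median log2 fold change of the 35 was 0.06 for d-SMG, 0.65 for s-GAG, and 0.50 for Alg, where the medians over all genes were -0.03, 0.00, and -0.03. For d-SMG the median was 0.41 without its own library of day 3, where 4 of the 35 genes and 827 of all genes had an unadjusted p under 0.05, and it was below 0 without d-SMG on day 7 (-0.10) or 14 (-0.28), the control of day 14 (-0.13), or Alg on day 3 (-0.08) or 14 (-0.13). For s-GAG it was 1.19 without the control of day 7 and 1.14 without s-GAG on day 14. For Alg it was 0.26 without Alg on day 3 and 0.77 without the control of day 7. The days serve as the replicates in these tests, so an effect that differs between days counts as spread, and the 3 comparisons share the control libraries.

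Fzd10, a receptor found in the epidermis and follicle, had the smallest p-value for both s-GAG and Alg. It was at 1.43, 0.819, and 2.39 CPM in the control on day 3, 7, and 14, at 7.34, 7.55, and 12.9 CPM in s-GAG, at 6.56, 2.44, and 7.83 CPM in Alg, and at 1.37, 2.12, and 5.10 CPM in d-SMG. All 3 s-GAG libraries and all 3 Alg libraries lay above the highest control library, while the d-SMG and control libraries overlapped. The log2 fold change was 2.66 ± 0.44 (SE) for s-GAG (edgeR adjusted p = 0.245), 1.87 ± 0.43 for Alg (adjusted p = 1), and 0.86 ± 0.43 for d-SMG (adjusted p = 1). Without the d-SMG library of day 3, which enters the estimate of the spread, Fzd10 passed the threshold for s-GAG with an adjusted p of 0.0339 by edgeR, and over the 19 alternatives this p ranged from 1.49e-05 to 0.885. Basal keratinocyte markers summed to 5138, 4212, and 5933 CPM in the control, 10410, 14670, and 33750 CPM in s-GAG, and 8666, 14400, and 12710 CPM in Alg on the 3 days, so they too were higher in every s-GAG and Alg library than in the control of the same day. In d-SMG the basal markers summed to 81.3, 7673, and 17500 CPM, which was above the control on day 7 and 14. The sum of 7 suprabasal keratinocyte markers was 496.6, 106.5, and 4781 CPM in the control and 612, 538.5, and 469 CPM in s-GAG. It was 322.6, 515.6, and 3710 CPM in Alg and 4.18, 298.9, and 238.3 CPM in d-SMG, so the control was the highest on day 14. The part of both marker lists in the Fzd10 difference was not tested.

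Wnt11, a ligand of the non-canonical branch, was at 1.09, 0.751, and 1.66 CPM in the control, 3.73, 3.07, and 7.50 CPM in s-GAG, 2.11, 1.83, and 2.92 CPM in Alg, and 0.965, 1.43, and 2.46 CPM in d-SMG. The s-GAG and Alg libraries all lay above the highest control library. Its log2 fold change was 1.98 ± 0.37 for s-GAG (edgeR adjusted p = 0.325) and 1.002 ± 0.37 for Alg (adjusted p = 1). Wif1 was at 0.546, 0.0683, and 0.977 CPM in the control, 1.84, 1.06, and 4.84 CPM in s-GAG, 1.71, 0.881, and 0.994 CPM in Alg, and 0.724, 0.552, and 1.83 CPM in d-SMG, which gave a log2 fold change of 2.30 ± 0.62 for s-GAG (edgeR adjusted p = 0.417) and 1.08 ± 0.63 for d-SMG (adjusted p = 1). The control library of day 7 held a single Wif1 read. Sfrp1, with the smallest p-value for d-SMG, had a log2 fold change of 1.12 ± 0.53 (edgeR adjusted p = 1), with d-SMG higher on 3 of 3 days at 64.4 ± 33.6 CPM (SD, n = 3) against 29.5 ± 19.1 CPM. Without the d-SMG library of day 3, the d-SMG values were 1.5 for Sfrp1, 1.26 for Fzd10, and 1.35 for Wif1, and without the control of day 7 those of Sfrp1 and Wif1 were 1.74 and 0.71. Rspo2 had fitted log2 fold changes of 4.96 ± 1.42 for s-GAG (edgeR adjusted p = 0.420) and 4.71 ± 1.44 for Alg (adjusted p = 1), which rest on control libraries with 2 reads at most, and which were 7.56 and 7.28 without the control of day 14.

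**Figure D4:**
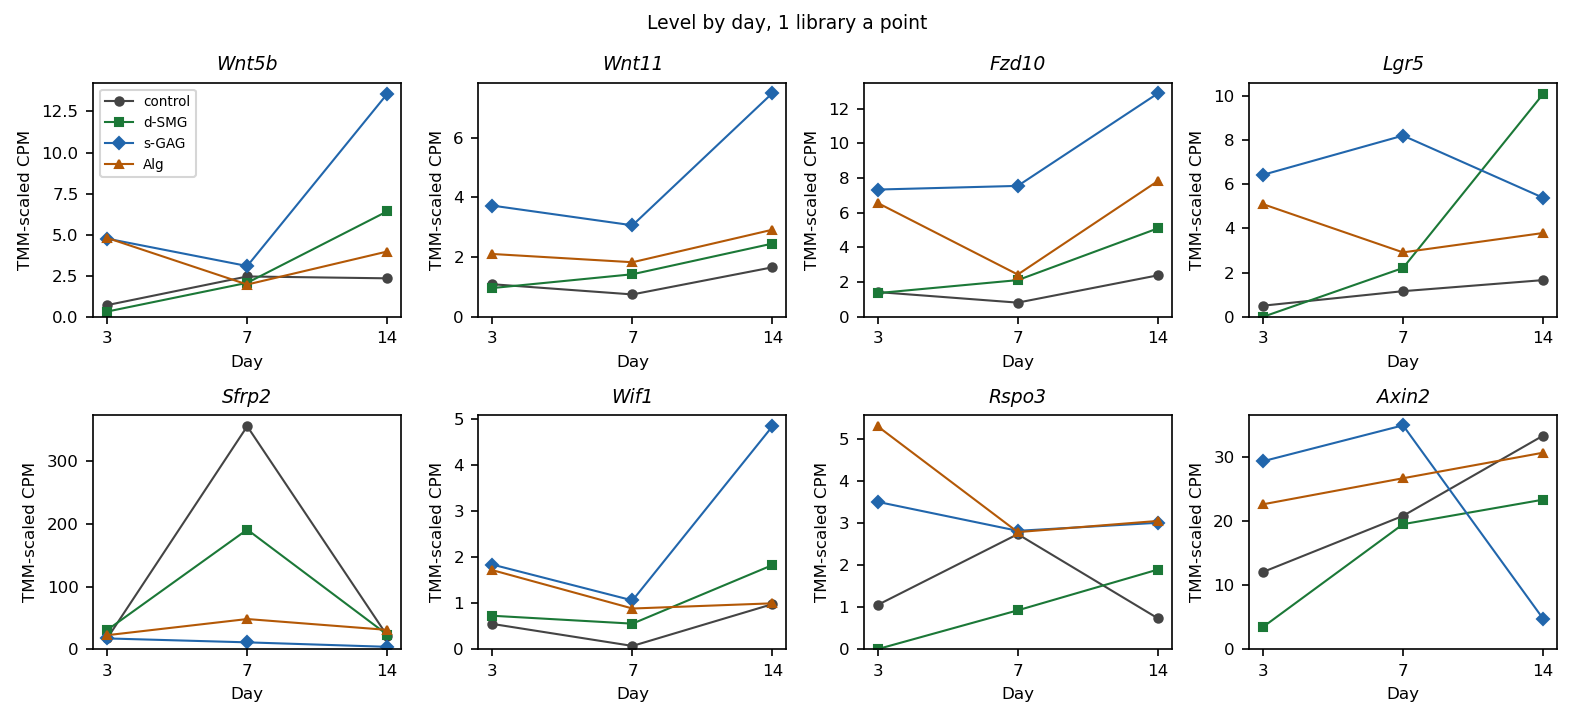
TMM-scaled CPM of 8 genes on day 3, 7, and 14 (evenly spaced), with 1 library a point and lines joining libraries of the same group, which are different animals. In the panels of Fzd10 and Wnt11 the s-GAG and Alg points lie above the control on all 3 days, Sfrp2 is highest in the control and d-SMG libraries of day 7, and Axin2 is low in s-GAG on day 14.

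Direction over the days was counted for the 35 tested genes without a test. In s-GAG, 15 of them (42.9%) were higher than the control on all 3 days, where 14.5% of all tested genes were. These were the ligands Wnt3, Wnt3a, Wnt5b, Wnt6, Wnt10a, Wnt10b, and Wnt11, the receptors Fzd1, Fzd3, and Fzd10, and Sfrp1, Wif1, Rspo2, Rspo3, and Lgr5. In Alg, 14 of them (40%) were higher on all 3 days against a background of 13%, namely Wnt3, Wnt3a, Wnt6, Wnt11, Fzd3, Fzd5, Fzd6, Fzd7, Fzd10, Frzb, Wif1, Rspo2, Rspo3, and Lgr5. For Rspo2 on day 7 this rests on 1 read against 0, and Wif1 on day 14 was at 0.994 against 0.977 CPM. In d-SMG, 3 of them (8.57%) were higher on all 3 days, near the background of 8.44%, and these were Fzd1, Sfrp1, and Wif1. Genes lower than the control on all 3 days were Sfrp2 alone for s-GAG (2.86%, background 12.9%), Fzd8 and Wnt7b for Alg (5.71%, background 11.5%), and Axin2, Dkk3, Fzd8, Rspo1, and Wnt9a for d-SMG (14.3%, background 10.2%). Under scaling by library totals alone, these counts were 14 and 0 (higher and lower) for s-GAG, 14 and 2 for Alg, and 1 and 0 for d-SMG. Of the tested genes, Fzd5, Rspo2, Wnt3a, and Wnt7b had under 10 reads in each control library.

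The summed level of 14 hair follicle matrix and shaft markers was 17.0, 19.3, and 324 CPM in the control on day 3, 7, and 14, 6.27, 835, and 1305 CPM in d-SMG, 2593, 1869, and 4532 CPM in s-GAG, and 1166, 138, and 7766 CPM in Alg. It was higher in s-GAG and Alg than in the control on each day, and in d-SMG than in the control on day 7 and 14. The summed level of 10 dermal papilla markers, the mesenchyme of the follicle, was 65.5, 48.0, and 102 CPM in the control, 48.7, 53.2, and 72.9 CPM in d-SMG, 73.3, 51.3, and 151 CPM in s-GAG, and 70.4, 50.9, and 78.3 CPM in Alg, which was lower in Alg than in the control on day 14. Corin, the only 1 of these 10 followed singly, ranked the groups otherwise than the sum. It was at 0.042, 0, and 0.293 CPM in the control and 0, 0.598, and 1.13 CPM in d-SMG. In s-GAG it was at 2.87, 2.14, and 1.57 CPM, and in Alg at 3.28, 0.271, and 2.17 CPM. Its reads were few, at 83 or fewer in a library. The part of the follicle and papilla markers in the levels of the follicle ligands, Rspo2, and Lgr5 was not tested.

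On single days, a gene was counted as past 4-fold when the ratio of the dressing to the control library of that day was at least 4 in either direction and its 95% counting interval (exact binomial) excluded equality. Scaling by library totals instead of TMM would shift every log2 ratio by -0.43 for d-SMG on day 3, 0.36 for d-SMG on day 7, -0.45 for s-GAG on day 14, 0.19 for d-SMG on day 14, and by 0.14 or less in size for the others. Only genes with at least 10 reads in the pair were used, a library under 3 reads was set to 3 for this count, and the intervals cover counting error only. The folds printed below for a library with 1 to 3 reads are those of its own reads with their interval, and those for a library with no read are bounds against 3 reads. On day 3, 9 of 36 such genes (25%) were past 4-fold in s-GAG, all higher, where 6.76% of all genes were. They were Lgr5, Wnt5b, Sfrp4, Fzd10, Wnt10b, Sfrp1, Wnt3, Fzd3, and Rspo2. In Alg on day 3, 6 of 37 (16.2%, background 4.96%) were past 4-fold, all higher, namely Rspo2, Lgr5, Wnt5b, Wnt10b, Rspo3, and Fzd10. In d-SMG on day 3, 6 of 33 (18.2%, background 7.85%) were, with Sfrp4 higher and Wnt16, Dkk3, Wnt3, Rspo3, and Wnt6 lower. The median log2 ratio of the members with enough reads was 1.24 for s-GAG, 1.03 for Alg, and -0.73 for d-SMG on day 3, beside 0.00, 0.00, and -0.03 over all genes.

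Lgr5, the receptor of R-spondins that marks stem cells of the follicle, gave the largest ratio of day 3 in s-GAG among the genes read in both libraries. It had 12, 17, and 34 reads in the control on day 3, 7, and 14, 112, 318, and 79 reads in s-GAG, 104, 43, and 61 reads in Alg, and 0, 48, and 160 reads in d-SMG. On day 3 it was 12.7-fold higher in s-GAG (interval 7.01 to 25.4) and 10.1-fold higher in Alg (interval 5.55 to 20.2), and in d-SMG it had no read, which allows up to 3 reads. Wnt5b, a ligand of the non-canonical branch, was at 0.714, 2.46, and 2.34 CPM in the control on day 3, 7, and 14, 0.322, 2.07, and 6.42 CPM in d-SMG, 4.76, 3.09, and 13.6 CPM in s-GAG, and 4.801, 1.97, and 3.98 CPM in Alg. The s-GAG library of day 14 was the highest. Wnt5b had 17 reads in the control, 83 in s-GAG, and 98 in Alg on day 3, and was 6.67-fold (3.92 to 11.99) and 6.73-fold (3.99 to 12.01) higher. Sfrp4 was 5.68-fold higher in s-GAG (4.98 to 6.49) and 7.76-fold higher in d-SMG (6.80 to 8.87). Rspo2 was at least 17.5-fold higher in Alg and at least 9.56-fold higher in s-GAG on day 3, computed against 3 reads in place of the 0 reads of the control.

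The genes lower in d-SMG on day 3 were lower in a library nearly without epithelial signal. That library also had the lowest fibroblast sum of the 12 (6005 CPM, against 7875 CPM in the control of day 3). Its skeletal muscle sum was the highest (251000 CPM). Wnt16 had 2 reads against 115 in the control, a 30.02-fold lower level with an interval of 8.13 to 250.9, or 20.02-fold with 3 reads in place of 2. Dkk3 was 6.09-fold lower (4.75 to 7.94), with 67 reads against 782. Wnt3 and Rspo3 had no read in that library against 35 and 25 in the control, and were at least 6.09-fold and at least 4.35-fold lower against 3 reads. Of the tested genes, 18 of 35 had their lowest level of all 12 libraries in d-SMG on day 3. The part of the tissue makeup of that library in these values was not tested.

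On day 7 the ratios were spread in both directions. In s-GAG, 11 of 37 genes (29.7%, background 7.86%) were past 4-fold, with Wnt11, Rspo2, Lgr5, Sfrp5, Fzd5, Fzd10, and Wif1 higher and Sfrp2, Wnt2b, Wnt5a, and Wnt7a lower. In Alg, 5 of 34 (14.7%, background 5.13%) were, with Sfrp5 and Wif1 higher and Sfrp2, Wnt2b, and Wnt5a lower. In d-SMG, 3 of 36 (8.33%, background 3.38%) were, namely Sfrp5 (higher), Wnt7a, and Frzb (both lower), none of which had more than 18 reads in either library, and by library totals the split was 1 higher and 0 lower. Sfrp2 was 33.1-fold lower in s-GAG (29.9 to 36.6) and 7.42-fold lower in Alg (6.85 to 8.03) than in the control. Wnt5a, the main ligand of the non-canonical branch in fibroblasts, was at 4.33, 49.5, and 8.25 CPM in the control on day 3, 7, and 14, 1.53, 15.2, and 12.8 CPM in d-SMG, 16.4, 11.9, and 18.1 CPM in s-GAG, and 10.8, 10.8, and 14.1 CPM in Alg. The control library of day 7 was again the high one, and Wnt5a was 4.15-fold lower in s-GAG (3.69 to 4.67) and 4.59-fold lower in Alg (3.86 to 5.49) on that day. Fzd10 was 9.22-fold higher (5.20 to 18.1) and Lgr5 7.06-fold higher (4.34 to 12.3) in s-GAG. Because the 3 dressings of a day share 1 control library, their ratios are not independent. The median log2 ratio on day 7 was 0.58 for s-GAG, 0.08 for Alg, and 0.28 for d-SMG, beside 0.05, 0.01, and -0.05 over all genes.

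**Figure D5:**
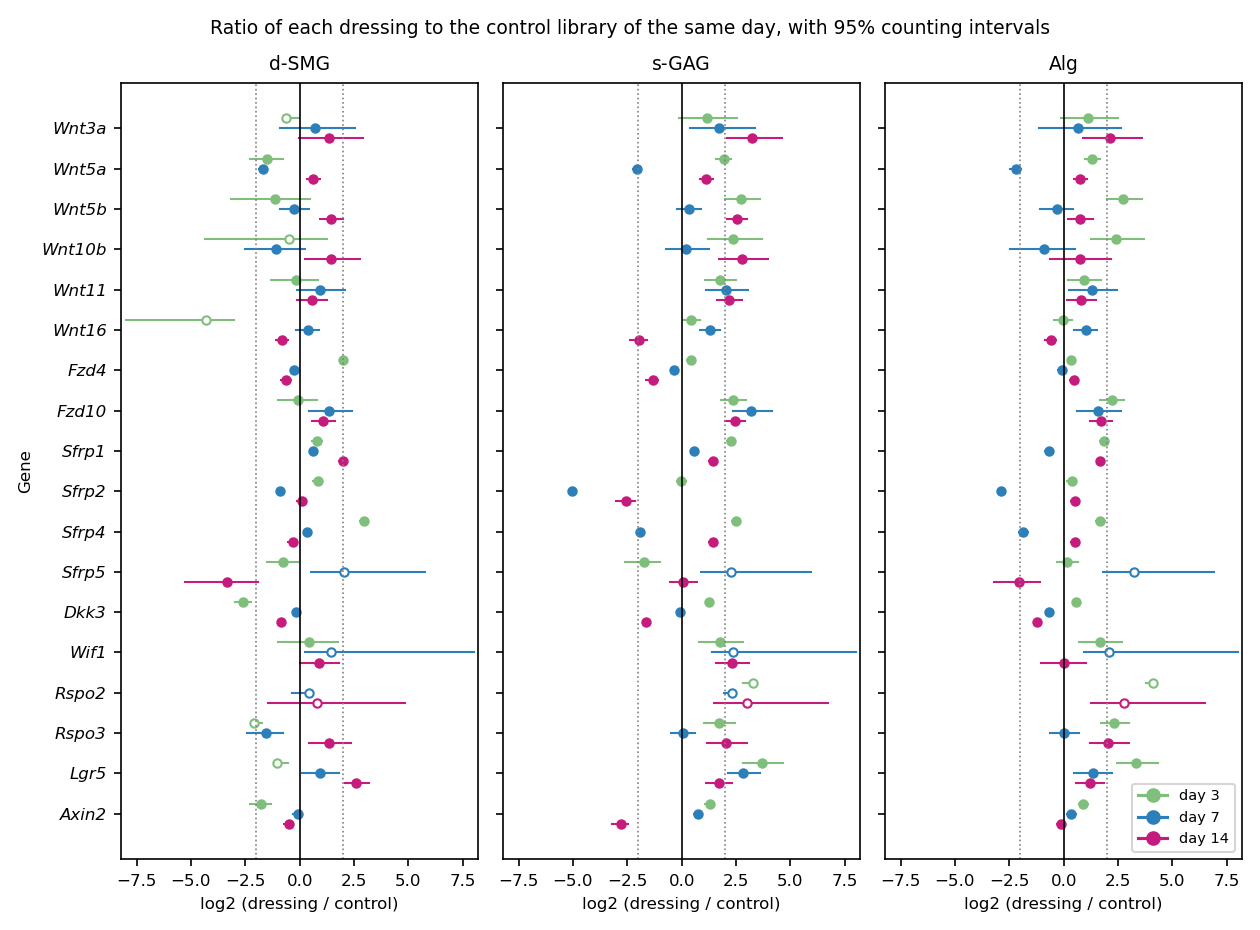
Ratio of each dressing to the control library of the same day for 18 genes, on a log2 scale, with 95% counting intervals. Hollow points have a library set to 3 reads, points with 3 reads or fewer in both libraries are left out, intervals are drawn to 8 at most, and dotted lines mark 4-fold. Fzd10 lies to the right of 0 on all 3 days in s-GAG and Alg, and Sfrp2 lies far to the left in s-GAG on day 7.

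On day 14 the s-GAG library stood out. There, 13 of 35 genes (37.1%) were past 4-fold, with 11 higher and 2 lower, but so were 24.5% of all genes in this pair, against 7.91% for d-SMG and 6.85% for Alg on the same day. Basal keratinocyte markers summed to 33750 CPM in that library, the highest of the 12, and Krt14 alone gave 24620 CPM of it. The basal marker Krt5 was at 4740 CPM there, against 4357 CPM in d-SMG on day 14. Fibroblast markers were at 9813 CPM against 31410 CPM in the control, and skeletal muscle markers at 139100 against 70560 CPM. The macrophage sum (275 CPM) and the smooth muscle and pericyte sum (1639 CPM) were the lowest of the 12. The part of tissue makeup in the ratios of this pair was not tested. The higher genes were the ligands Wnt3a, Wnt5b, Wnt6, Wnt10a, Wnt10b, and Wnt11, the receptor Fzd10, and Rspo2, Rspo3, Frzb, and Wif1, and the lower ones were Axin2 and Sfrp2. Scaled by library totals alone, the split was 5 higher and 5 lower, and Axin2, Sfrp2, Dkk3, Fzd7, and Wnt16 were the lower ones. Wnt3a, a canonical ligand of the follicle, had 9, 5, and 7 reads in the control on day 3, 7, and 14 and 15, 43, and 47 reads in s-GAG, and was 9.38-fold higher on day 14 (4.21 to 24.6). It had 17, 8, and 24 reads in Alg and 0, 12, and 14 reads in d-SMG. Wnt10b, another canonical ligand of the follicle, had 8, 13, and 9 reads in the control, 30, 40, and 44 reads in s-GAG, 36, 7, and 12 reads in Alg, and 2, 9, and 19 reads in d-SMG. It was 6.83-fold higher in s-GAG on day 14 (3.29 to 15.9), 5.12-fold higher on day 3 (2.29 to 12.9), and its log2 fold change over the days was 1.64 ± 0.80 (edgeR adjusted p = 0.560).

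In the other dressings fewer genes were past 4-fold on day 14, and the median log2 ratio was 0.70 for s-GAG, 0.53 for Alg, and 0.56 for d-SMG, beside -0.04, -0.02, and -0.01 over all genes. In d-SMG, 3 of 33 (9.09%, background 7.91%) were, with Lgr5 and Frzb higher and Sfrp5 lower. Scaled by library totals alone, the split was 4 higher and 1 lower. Lgr5 was 6.07-fold higher in d-SMG (4.17 to 9.06), and at 10.1 CPM this library had the highest Lgr5 level of all. In Alg, 5 of 35 (14.3%, background 6.85%) were past 4-fold, with Rspo2, Rspo3, Fzd5, and Wnt3a higher and Sfrp5 lower, and by library totals the split was 5 higher and 0 lower. Rspo3, which is made by the dermis and vessels, had 25, 40, and 15 reads in the control, 0, 20, and 30 reads in d-SMG, 61, 109, and 44 reads in s-GAG, and 108, 41, and 49 reads in Alg, and was 4.16-fold higher in Alg on day 14 (2.29 to 7.98). Sfrp5 had 78, 2, and 53 reads in the control, 24, 18, and 4 reads in d-SMG, 17, 38, and 40 reads in s-GAG, and 75, 28, and 10 reads in Alg.

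Axin2, the feedback inhibitor that canonical signalling induces, was lowest in d-SMG on day 3 and in s-GAG on day 14. It was at 12.1, 20.8, and 33.4 CPM in the control on day 3, 7, and 14, at 3.46, 19.5, and 23.4 CPM in d-SMG, at 29.4, 35.0, and 4.77 CPM in s-GAG, and at 22.6, 26.7, and 30.7 CPM in Alg. In s-GAG it was therefore above the control on day 3 and 7 and, with 70 reads against 683, 6.99-fold lower on day 14 (5.46 to 9.07). In that pair 24.5% of all genes were past 4-fold. Of 14 other known targets of the pathway, 9 were higher there. Past 4-fold were 3 of the 14, all higher (Myc, Notum, and Lef1), a smaller share than the 24.5% of all genes. The median log2 ratio of these targets was 0.36, beside -0.04 over all genes, and scaling by library totals would shift both by -0.45. The s-GAG library of day 14 held the highest CPM of 7 of the 13 tested ligands, which depends on the scaling. By FPKM, Wnt3 was higher in Alg on day 14 (1.27 against 0.95). Wnt10a was higher by FPKM in d-SMG on day 14 (1.47 against 1.44). The summed ligand FPKM was 21.2 in s-GAG, 23.2 in d-SMG, and 21.4 in Alg on that day. Over the 3 days, the log2 fold change of Axin2 was 0.23 ± 0.78 for s-GAG (edgeR adjusted p = 0.910), 0.35 ± 0.75 for Alg (adjusted p = 1), and -0.60 ± 0.75 for d-SMG (adjusted p = 1). In d-SMG the CPM of Axin2 was lower than in the control on 3 of 3 days, but the day 7 values were close. By FPKM, Axin2 was higher in d-SMG on day 7, at 4.16 against 3.53 in the control. By library totals, Axin2 was not lower in d-SMG on all 3 days.

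The promoters were searched for the letters that the Tcf and Lef1 factors are known to recognize, since the readout role of Axin2 rests on such sites. The search used CTTTG followed by A or T in each of the next 2 positions, on both strands, in the 250 bases before the start site in RefSeq (build GRCr8, which may not be the build of the files). Of the 43 genes, 30 were in the promoter table, and Dkk2, Dkk3, Dkk4, Fzd2, Fzd3, Fzd6, Lgr5, Rspo2, Sfrp1, Sfrp4, Wnt10b, Wnt5b, and Wnt7b were not. Of the 30, 4 (13.3%) had a match, beside 14.9% of all 33469 promoters. The 4 were Axin2 and Dkk1 with 2 matches each, and Sfrp5 and Wnt8a with 1 match each. The sequences shown are those of Axin2 (chr10:94398535-94398784, plus strand) and Dkk1 (chr1:237798651-237798900, minus strand), with the matches in capitals, and, as the members with the widest swing and the smallest p-value, those of Sfrp2 (chr2:171387286-171387535, plus strand) and Fzd10 (chr12:33737560-33737809, minus strand), where no match was found.
Axin2: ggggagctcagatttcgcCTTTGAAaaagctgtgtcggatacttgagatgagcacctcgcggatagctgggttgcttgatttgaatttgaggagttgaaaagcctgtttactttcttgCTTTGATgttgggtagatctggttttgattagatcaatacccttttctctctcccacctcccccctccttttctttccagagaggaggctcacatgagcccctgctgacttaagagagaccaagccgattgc
Dkk1: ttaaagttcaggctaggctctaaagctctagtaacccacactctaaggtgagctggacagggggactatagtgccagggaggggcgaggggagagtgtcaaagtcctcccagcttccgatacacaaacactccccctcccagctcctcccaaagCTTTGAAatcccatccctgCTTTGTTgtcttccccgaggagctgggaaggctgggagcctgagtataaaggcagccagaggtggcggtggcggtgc
Sfrp2: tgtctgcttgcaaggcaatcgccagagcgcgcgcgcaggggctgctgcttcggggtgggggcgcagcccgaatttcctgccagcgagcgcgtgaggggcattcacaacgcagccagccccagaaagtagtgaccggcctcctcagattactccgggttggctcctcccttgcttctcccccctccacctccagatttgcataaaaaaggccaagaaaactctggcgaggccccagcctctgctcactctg
Fzd10: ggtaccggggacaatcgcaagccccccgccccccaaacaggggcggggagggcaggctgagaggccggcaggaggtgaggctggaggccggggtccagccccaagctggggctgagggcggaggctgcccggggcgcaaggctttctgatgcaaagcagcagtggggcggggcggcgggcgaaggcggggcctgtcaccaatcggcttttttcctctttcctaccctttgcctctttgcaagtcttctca
The matches of Axin2 begin 232 and 132 bases before the start, and those of Dkk1 begin 96 and 77 bases before it. Axin2 was read in every library (43 to 1357 reads), whereas Dkk1 had 1 read among all 12 libraries. A match is a stretch of letters and was not tested as a binding site.

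The rest of the pathway was followed in 7 lists with 72 genes found in the count table, Lef1, Tcf7, Notum, and Apcdd1 being in 2 lists each. They cover secretion and release of WNT ligands, co-receptors and receptor turnover, other inhibitors, the intracellular cascade, nuclear effectors, known transcriptional targets, and the planar polarity and calcium branch. None of the 68 that could be tested passed an adjusted p of 0.05 in any of the 6 edgeR comparisons. At an unadjusted p under 0.05 there were 3, 5, and 4 of them between days (day 7 against 3, 14 against 3, and 14 against 7), 1 for d-SMG, 15 for s-GAG, and 5 for Alg. These are 4.41%, 7.35%, 5.88%, 1.47%, 22.1%, and 7.35% of the 68, beside 1.81%, 4.95%, 3.12%, 1.35%, 9.26%, and 3.12% of all genes tested. DESeq2 called 5 for s-GAG (Gpc3, Kremen2, Notum, Sp6, and Lef1), beside 281 of the 21417 genes it tested, and 0 in the other comparisons. On single days, the number past 4-fold was 11 higher and 0 lower of 68 in s-GAG on day 3, 8 and 1 of 68 on day 7, and 7 and 9 of 69 on day 14. The corresponding counts were 8 and 1 of 68, 0 and 0 of 65, and 3 and 2 of 69 in Alg, and 1 and 7 of 65, 1 and 1 of 66, and 5 and 2 of 69 in d-SMG. On day 3, 7, and 14 these were 16.2%, 13.2%, and 23.2% in s-GAG, beside 6.76%, 7.86%, and 24.5% of all genes. They were 13.2%, 0%, and 7.25% in Alg, beside 4.96%, 5.13%, and 6.85%, and 12.3%, 3.03%, and 10.1% in d-SMG, beside 7.85%, 3.38%, and 7.91%. The shares of s-GAG on day 14, of d-SMG on day 7, and of Alg on day 14 were thus near those of all genes. Over the 3 days in s-GAG, the median log2 fold change was 0.89 for 13 tested targets, 0.82 for 6 secretion genes, 0.76 for 5 other inhibitors, 0.31 for 14 co-receptor genes, 0.20 for 10 nuclear effectors, 0.12 for 12 genes of the planar polarity and calcium branch, and -0.05 for 12 genes of the intracellular cascade. In s-GAG on day 14 the intracellular cascade had 3 of 12 genes past 4-fold, all lower (Gsk3b, Dvl3, and Ccdc88c), in the pair with the background of 24.5%. In the other 8 pairs none of its 12 genes was past 4-fold.

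From these lists, values are given for Lef1, a nuclear partner of beta-catenin that is abundant in the follicle matrix, and for Notum, an enzyme that strips the lipid from WNT ligands and is itself a target of the pathway. Both were chosen after their values were seen. Lef1 was at 1.43, 4.92, and 3.27 CPM in the control on day 3, 7, and 14, 0.643, 9.90, and 32.5 CPM in d-SMG, 48.0, 37.1, and 89.0 CPM in s-GAG, and 46.3, 4.81, and 52.0 CPM in Alg. Its log2 fold change was 4.05 ± 1.15 for s-GAG (edgeR adjusted p = 0.417) and 3.35 ± 1.19 for Alg (adjusted p = 1). Every library above 30 CPM of Lef1 also held more than 1000 CPM of the follicle markers. These cutoffs were not set beforehand. Notum had 5, 1, and 2 reads in the control on day 3, 7, and 14, 4, 8, and 15 reads in d-SMG, 24, 54, and 53 reads in s-GAG, and 36, 5, and 19 reads in Alg, with a log2 fold change of 3.98 ± 0.72 for s-GAG (edgeR adjusted p = 0.309) and 2.96 ± 0.71 for Alg (adjusted p = 1). The part of follicle content in both was not tested.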

How the data were processed

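RNA-seq of wound tissue from diabetic rats was used, with 1 stranded, rRNA-depleted, paired-end library for each pair of 1 of 4 treatments (d-SMG, s-GAG, Alg, or saline as control) and 1 of 3 days. The authors deposited a table of read counts per gene, which are not normalized, and a table of FPKM values, scaled by the authors for gene length and library total. Submitters' processing notes name bcl2fastq, FastQC, TopHat2, and edgeR, with no version. The genome build, the annotation, and the counting tool are not given in the sources used here. Both tables also hold 1 column of values that matched no described sample and was not used. No columns of the authors' own comparisons were used.

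Counts were scaled by TMM and genes were filtered with filterByExpr at a minimum count of 10, which left 16110 genes. The edgeR quasi-likelihood test (edgeR 4.0.16, limma 3.58.1, R 4.3.3) was fitted to all 12 libraries with day and treatment as terms, and gave 3 comparisons of days and 3 of dressings against the control. P-values were adjusted by the Benjamini-Hochberg method over all genes tested, with a threshold of 0.05. Days and treatments stand in for replicates in these fits, so the p-values measure the spread between libraries of different days or treatments. Each dressing was also set against the control of its day by the ratio of TMM-scaled CPM, with exact (Clopper-Pearson) 95% intervals and no p-value. A gene counted as past 4-fold when its log2 ratio was at least 2 in size, its interval lay wholly on 1 side of 0, and the pair held at least 10 reads, with any library under 3 reads set to 3. Printed folds use the reads as they are where a library had 1 to 3, and a floor of 3 reads where it had 0. The intervals cover counting error only, since PCR reads without molecular identifiers are not independent molecules. Levels were compared between genes on the FPKM scale only. The scripts were tested on simulated data. DESeq2 1.42.0, other scalings, no filter on low counts, fits without the block, and leaving out each of the 12 libraries in turn were alternatives. A further alternative left out both d-SMG on day 3 and s-GAG on day 14. The dressings were also compared with the control without any library of day 3. This made 19 alternatives for a dressing and 18 for a comparison of days. Python 3.11.15 and matplotlib 3.10.9 drew the plots.

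Members and gene lists were chosen with earlier results of these data known. Genes given in every library were the 3 with the smallest unadjusted p of each comparison without a call, the 3 with the largest ratio past 4-fold of each pair counting only genes whose higher library held 30 reads or more, the 3 of each role with the highest median FPKM, and Axin2, Lgr5, Wnt10b, and Wif1. Others are named after their values were seen.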

Additional observations from a re-analysis of the deposited data

Results flagged for a closer look

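For 2 secreted inhibitors the ratio of dressing to control lay past 4-fold in opposite directions on different days. Each direction rests on 1 library against 1 control library, and the difference between days was not tested. The log2 ratio of Frzb in d-SMG was 2.10 on day 14 (10 reads against 3) and -2.15 on day 7 (3 reads against 9), a difference of 4.26. The log2 ratio of Sfrp5 in d-SMG was 2.02 on day 7 and -3.36 on day 14, a difference of 5.38. In Alg the log2 ratio of Sfrp5 was 3.21 on day 7 and -2.06 on day 14, a difference of 5.27. The Sfrp5 ratios of day 7 share a control library with 2 reads, which were set to 3, and those of day 14 share a control library with 53 reads. Scaled by library totals alone, Frzb in d-SMG on day 7 and Sfrp5 in Alg on day 14 were no longer past 4-fold, so of these only Sfrp5 in d-SMG kept both sides.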

How the results depend on the processing

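In the 6 edgeR comparisons no member was called, and the count stayed at 0 under each alternative except for s-GAG and Alg over the 3 days. For s-GAG, DESeq2 called 4 members, leaving out each library in turn gave 0 to 1 members (1, Fzd10, without d-SMG on day 3), and leaving out both d-SMG on day 3 and s-GAG on day 14, an alternative chosen after seeing the data, gave 2 (Fzd6 and Fzd10). For Alg, DESeq2 called 1 member. Over all genes edgeR called 0 in each comparison, whereas DESeq2 called 18, 46, and 26 between days and 9, 281, and 93 for d-SMG, s-GAG, and Alg. For s-GAG, edgeR called 66 genes without d-SMG on day 3, 177 genes without both libraries, 1 gene without Alg on day 7, and 1 gene with no filter on low counts. Fits without the replicate block, in which treatments or days were not blocked, called 0 members and 0 genes. Of the 18 fold changes followed over the alternatives, 327 values kept their direction and their side of the threshold and 6 passed it. For single days, requiring at least 50 reads in the pair left 3 members past 4-fold for d-SMG on day 3, 0 for d-SMG on day 7, 6 for s-GAG on day 7, 2 for Alg on day 7, and 2 for Alg on day 14. An exact test at an assumed biological coefficient of variation of 0.3 was run for each pair. On day 3, 7, and 14 it called 7, 0, and 3 members for d-SMG, beside 1037, 295, and 963 of all genes. For s-GAG it called 7, 7, and 17 members, beside 732, 1061, and 5441 of all genes. For Alg it called 3, 3, and 0 members, beside 427, 347, and 849 of all genes. Scaling by library totals gave 1 member for d-SMG on day 7 and 5 for d-SMG on day 14. None of the 18 fold changes or 21 single-day ratios followed over the alternatives changed sign, but the median over the tested members did, for d-SMG against the control and for day 14 against day 7. Leaving out each library in turn, the members at an unadjusted p under 0.05 numbered 0 to 8, 0 to 8, and 3 to 5 between days, 0 to 4 for d-SMG, 5 to 14 for s-GAG, and 2 to 7 for Alg. Without both d-SMG on day 3 and s-GAG on day 14, the log2 fold changes of Fzd2 (day 7 against 3), Wnt11, and Fzd4 (day 14 against 3) were 0.61, 0.51, and -0.34. Where a count moved under another tool or scaling, the cause was not tested, while a higher read minimum leaves fewer genes to count. Depth limits the low members most, since Fzd5, Rspo2, Wnt3a, and Wnt7b had under 10 reads in each control library.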
